A study of Homo sapiens with 24 samples.

Results

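RNA bound to AGO2 was compared with total RNA in LNCaP cells given miR-130a. LNCaP is an established human prostate cancer line that responds to androgen. The comparison uses 6 of the 24 arrays of the series, chosen by their labels: 3 arrays of AGO2-bound RNA and 3 arrays of total RNA, all from cells nucleofected with 2.5 µg of plasmid for miR-130a. The same pair of RNA kinds was measured after a miR-203 plasmid, a miR-205 plasmid and a scramble control, again with 3 arrays each, and these 18 arrays serve as the setting in which the miR-130a values are read. AGO2-bound RNA was recovered with an antibody against AGO2, and each array, an Affymetrix human expression array, received 2 µg of RNA. The cells of all 8 groups were LNCaP, and all were nucleofected. The labels call the arrays biological replicates but do not say whether they came from separate cultures, so a p-value here reflects only how far these arrays spread, which may be technical. Precipitates made with a control antibody were not analysed here, so RNA that sticks to the beads or the antibody cannot be told apart from RNA bound to AGO2. Each array received the same mass of RNA, so a difference is one of share within each RNA pool and not of amount per cell. With 3 arrays in each group the precision is limited.

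AGO2 is an Argonaute protein. It carries a microRNA as a guide, and the guide pairs through its seed, the bases near its 5′ end, with complementary sites that lie mostly in the 3′ untranslated regions of messenger RNAs. The complex then recruits the CCR4-NOT deadenylase through GW182 proteins, and the transcript is repressed and shortened at its tail. A transcript held by AGO2 is therefore carried into the precipitate, whichever microRNA of the cell guides the complex, the transfected one or one that the cell makes itself. miR-130a belongs to a family with a common seed, and let-7 and miR-17 are families that many cancer cells express.

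The mature sequences of the families whose known targets are described below were taken from RefSeq (GRCh38.p14), with the seed, bases 2 to 8, in capitals. They show which bases the members of each family share. The family of miR-130a-3p is represented here by 4 members, of which miR-130b and miR-301b lie on chromosome 22 at chr22:21653354-21653375 and chr22:21653025-21653047 (plus strand), and miR-301a and miR-454 on chromosome 17 at chr17:59151149-59151171 and chr17:59137787-59137809 (minus strand).
hsa-miR-130b-3p: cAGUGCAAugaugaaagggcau
hsa-miR-301a-3p: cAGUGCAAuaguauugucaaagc
hsa-miR-301b-3p: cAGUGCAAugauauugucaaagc
hsa-miR-454-3p: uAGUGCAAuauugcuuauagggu
All 4 share the seed AGUGCAA and differ mostly after it. The let-7 family is shown by 4 members with the seed GAGGUAG, at chr9:94175962-94175983 (let-7a, plus strand), chr22:46113691-46113712 (let-7b, plus strand), chr12:62603691-62603712 (let-7i, plus strand) and chrX:53556299-53556320 (miR-98, minus strand).
hsa-let-7a-5p: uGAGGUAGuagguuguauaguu
hsa-let-7b-5p: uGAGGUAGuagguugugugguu
hsa-let-7i-5p: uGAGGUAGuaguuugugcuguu
hsa-miR-98-5p: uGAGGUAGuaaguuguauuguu
The miR-17 family has the seed AAAGUGC, shown for miR-17 and miR-20a at chr13:91350618-91350640 and chr13:91351072-91351094 (plus strand) and for miR-106b at chr7:100094043-100094063 (minus strand).
hsa-miR-17-5p: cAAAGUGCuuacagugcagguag
hsa-miR-20a-5p: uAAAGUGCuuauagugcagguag
hsa-miR-106b-5p: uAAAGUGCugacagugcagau

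The 6 arrays had 40.1% to 40.7% of their 22277 probe sets within 0.05 of the lowest value on the log2 scale, so dim transcripts have compressed differences. All 6 had the same lowest value, which differs from that of the other transfections, and they appear to come from one normalization run. The control probe sets differed between the 2 kinds of RNA. Signal of 18S ribosomal RNA was 7.54 to 8.14 in AGO2-bound RNA, against 3.32 to 3.56 in total RNA, and the poly-A control probe sets averaged 4.85 to 5.89, against 3.53 to 3.66 (log2). The 3 prime minus 5 prime signal was 1.20 to 1.30 for GAPDH in AGO2-bound RNA, against 0.63 to 0.77 in total RNA, and for ACTB it was 2.22 to 2.78, against 2.00 to 2.15. The part of these control differences in the gene values below was not tested. The cells carried luminal prostate markers, with 9 of 9 measured above the floor, and 0 of 5 immune markers were above it. Of 5 basal markers DST was above it on at least 1 array in both kinds of RNA, and KRT14 in total RNA. Of 5 endothelial markers VWF was above it in both kinds. Of 5 neuroendocrine markers SYP and ENO2 were above it in both, and CHGB in AGO2-bound RNA. The highest reading among these 6 genes was 3.32, for ENO2 in total RNA. Of the stromal markers, ACTA2, smooth muscle actin, averaged 6.11 ± 0.37 in AGO2-bound RNA, against 4.27 ± 0.10 in total RNA (SD, n = 3 each). COL1A1, COL3A1 and, in total RNA, MYH11 were the other stromal markers above the floor on any array, of 8. Summed over the stromal list, the log2 values were 23.7 to 24.8 in AGO2-bound RNA, against 21.9 to 22.2 in total RNA.

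AGO2-bound and total RNA after miR-130a were different populations of transcripts. Of 6782 genes tested, 4858 (71.6%) differed at an adjusted p under 0.05, which is called below (limma over all 24 arrays, Benjamini-Hochberg). In AGO2-bound RNA 2258 genes were higher (33.3%) and 2600 lower (38.3%). With a difference of at least 2-fold, 1299 were higher (19.2%) and 1199 lower (17.7%). The 3 AGO2-bound arrays all lay above the 3 total RNA arrays for 2413 genes (35.6%) and all below them for 2828 (41.7%). Over all genes tested the median difference was -0.08. The median SD between arrays was 0.181 in AGO2-bound RNA and 0.098 in total RNA (log2). Values below are log2 signals of one probe set per gene. Differences are AGO2-bound minus total RNA on the log2 scale, from 3 arrays against 3, with the SE of the fit. The SE and p-value use a spread per gene that is pooled over all 24 arrays.

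The 15 largest rises in AGO2-bound RNA ranged from 4.52 to 6.16, led by the receptor gene ADRA2A. ADRA2A, the alpha-2A adrenergic receptor, read 9.75, 10.39 and 10.38 on the AGO2-bound arrays, against 4.24, 3.78 and 4.02 on the total RNA arrays. All 3 AGO2-bound values were far above all 3 total values, a difference of 6.16 ± 0.21 or 71.6-fold (adjusted p = 1.76e-17). DUSP2, a nuclear phosphatase of MAP kinases, read 9.48, 9.99 and 10.07 in AGO2-bound RNA, against 4.34, 4.59 and 4.65 in total RNA (39.9-fold). SMAD7, the inhibitory SMAD of TGF-beta signalling, read 7.68, 7.98 and 8.38, against 3.38, 3.32 and 3.24 in total RNA (26.0-fold). E2F3, a transcription factor of S phase entry, read 9.40, 9.48 and 9.70 in AGO2-bound RNA, against 4.57, 4.67 and 4.70 in total RNA (29.5-fold), and its other probe set differed by 3.54. Only called genes whose 2 groups did not overlap were ranked here, so the separation of the groups was set by the choice of genes. SIK1, a salt-inducible kinase, was higher by 4.82 ± 0.22, TBPL1, a relative of the TATA-binding protein, by 4.77 ± 0.18 and ZNF281, a zinc finger transcription factor, by 4.63 ± 0.21. TXNIP, which binds thioredoxin, was higher by 4.63 ± 0.17 with its 3 probe sets between 2.93 and 4.63. IGFBP3, a binding protein of insulin-like growth factors, varied most between AGO2-bound arrays, which read 7.07, 8.14 and 8.93, against 3.77, 3.17 and 3.46 in total RNA. Its difference was 4.58 ± 0.48 (adjusted p = 6.49e-09). HCCS, which attaches heme to cytochrome c, SERTAD3, a transcriptional coregulator, PCTP, a phosphatidylcholine carrier, CTSA, a lysosomal carboxypeptidase, ARID3A, a DNA-binding protein, and CHAC1, a glutathione-degrading enzyme, completed the 15, with differences of 4.52 to 5.06.

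The 15 largest falls in AGO2-bound RNA ranged from -2.87 to -4.90, led by PKM and EEF1A2. PKM, pyruvate kinase, read 5.04, 4.62 and 4.60 in AGO2-bound RNA, against 9.74, 9.64 and 9.60 in total RNA. This is 29.9-fold lower in AGO2-bound RNA, a difference of -4.90 ± 0.19 (adjusted p = 1.11e-16). EEF1A2, a translation elongation factor, read 6.35, 6.20 and 6.60, against 11.12, 11.18 and 11.00 in total RNA, and was 26.3-fold lower. ZNF652, a zinc finger repressor, read 3.14, 3.06 and 3.44 in AGO2-bound RNA, against 7.16, 7.11 and 7.11 in total RNA. STIP1, which links HSP70 to HSP90, read 4.02, 4.08 and 4.75, against 8.02, 7.95 and 8.05 in total RNA. The falls too were ranked only among genes without overlap, so the separation of the groups was set by the choice. Of these 4 genes, the spread was wider among the AGO2-bound arrays of STIP1. PEX10, a ubiquitin ligase of peroxisome import, was lower by -3.44 ± 0.24, BANF1, a chromatin-bridging protein, by -3.40 ± 0.13 and NAPA, the SNARE-disassembly factor alpha-SNAP, by -3.40 ± 0.19. FOLR1, a folate receptor, EPHX1, an epoxide hydrolase, GRINA, a membrane protein, and MIF, a cytokine, differed by -3.33, -3.24, -3.14 and -2.98. IMP4, a factor of ribosomal RNA processing, EXOC5, an exocyst subunit, RPA3, a subunit of replication protein A, and PDAP1 differed by -2.95 to -2.87.

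**Figure D1:**
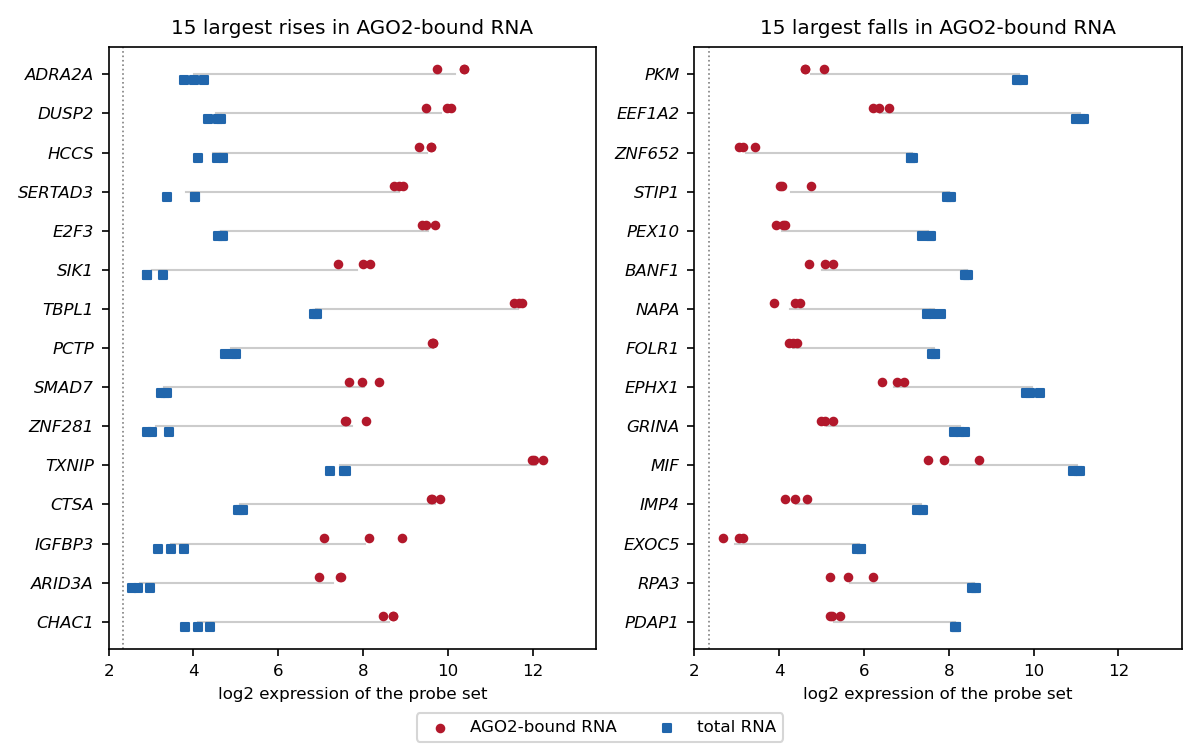
Log2 signal of the 15 genes with the largest rise (left panel) and the 15 with the largest fall (right panel) in AGO2-bound RNA after miR-130a. Each row is a gene, circles are the 3 AGO2-bound arrays and squares below them the 3 total RNA arrays. Grey lines join the group means and the dotted line marks the floor. Only called genes whose 2 groups did not overlap were ranked, so in every row the groups lie apart by choice.

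Known targets of let-7 were mostly higher in AGO2-bound RNA. Of 36 genes on the list 27 were on the array and 19 were tested, of which 14 (73.7%) were higher and 3 lower, against 33.3% and 38.3% of all genes. Their median difference was 1.89, against -0.08 over all genes tested. After miR-203, miR-205 and scramble 14, 16 and 16 members were higher, with medians of 1.87, 2.64 and 2.57. Relative to scramble, 1 member was further above total RNA after miR-130a and 8 less far, against 16.2% and 18.4% of all genes. ARID3A read 6.96, 7.45 and 7.49 in AGO2-bound RNA, against 2.69, 2.98 and 2.56 in total RNA, close to the floor (4.56 ± 0.21). NME6, a nucleoside diphosphate kinase relative, read 7.78, 7.63 and 7.65, against 3.74, 4.06 and 3.60 in total RNA (3.88 ± 0.14, adjusted p = 4.66e-17). PLAGL2, a zinc finger transcription factor, read 8.28, 8.55 and 8.61 in AGO2-bound RNA, against 4.74, 4.53 and 4.90 in total RNA. ACVR1B, an activin receptor, read 8.89, 8.66 and 8.66, against 5.74, 6.02 and 5.67 in total RNA. The AGO2-bound arrays of these 4 genes were 7.62-fold to 23.6-fold above total RNA without overlap. The 3 lower members were HRAS, a RAS GTPase, at -1.45 ± 0.14, HMGA1, a chromatin protein, at -0.64 ± 0.15, and NAP1L1, a histone chaperone, at -0.43 ± 0.14. NAP1L1 has 6 probe sets, from -0.57 to 1.76, and 3 of them shared the sign of the one used. Of the higher members IGF2R, a receptor that clears IGF2, had the smallest difference, 0.33, which lost the threshold without any one of 5 of the 6 arrays (0.24 to 0.35), and its other probe set went the other way (-0.37).

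Few known targets of miR-130a itself were lower in AGO2-bound RNA, and the share higher was near that of all genes. Of 40 genes on the list, 34 were on the array and 14 were tested, of which 5 (35.7%) were higher in AGO2-bound RNA, 1 was lower and 8 did not pass. The share higher is near the 33.3% of all genes, and the share lower (7.1%) is below their 38.3%. The median difference was 0.19, against -0.08 over all genes tested. After miR-203, miR-205 and scramble 4, 2 and 2 members were lower. As many or more members were higher after the other transfections, 5 after miR-203, 5 after miR-205 and 7 after scramble, where the median was 0.43. ACVR1, a receptor of bone morphogenetic proteins, read 7.94, 8.20 and 8.38 in AGO2-bound RNA, against 4.08, 4.16 and 4.26 in total RNA. It was 16.1-fold higher (4.01 ± 0.16, adjusted p = 2.35e-16). INHBB, the beta-B subunit of activin and inhibin, read 6.67, 6.81 and 6.98, against 3.13, 3.74 and 3.68 in total RNA, and was 9.88-fold higher (3.30 ± 0.15, adjusted p = 1.56e-15). CBFB, the partner subunit of RUNX transcription factors, read 7.84, 7.50 and 8.10 in AGO2-bound RNA, against 6.18, 6.06 and 6.05 in total RNA (3.29-fold). IRF1, an interferon regulatory factor, read 5.28, 6.25 and 5.71, against 4.26, 4.05 and 3.82 in total RNA (3.27-fold). KLF4, a Krüppel-like transcription factor, read 8.49, 9.26 and 9.30 in AGO2-bound RNA, against 8.06, 8.06 and 7.77 in total RNA (2.08-fold). In these 5 genes the groups did not overlap, and array 1 was the lowest AGO2-bound array in each except CBFB. SMAD5, a receptor-activated SMAD, was the lower member, at 2.92, 3.07 and 3.02 in AGO2-bound RNA, against 3.95, 3.51 and 3.74 in total RNA (-0.73 ± 0.24, adjusted p = 0.0100).

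The 8 targets that did not pass had AGO2-bound and total RNA arrays that overlapped. BMPR2, a type 2 BMP receptor, differed by 0.41 ± 0.19 (adjusted p = 0.0540), with 4.17, 4.82 and 4.94 in AGO2-bound RNA, against 4.48, 4.34 and 3.91 in total RNA. It passed the threshold without AGO2-bound replicate 1 (0.64) or without total RNA replicate 1 (0.52). RAB5A, an early endosome GTPase, differed by -0.22, DICER1, the enzyme that cuts microRNA precursors, by 0.17, and ATG2B, an autophagy lipid transfer protein, by 0.22. CYLD, a deubiquitinase, TSC1, an inhibitor of mTOR, ATXN1 and SMAD4, the common SMAD, lay between -0.05 and 0.08. The probe set with the largest variance gave 1.46 for DICER1 and -1.60 for RAB5A, so probe sets of the same gene gave different values. SMAD4 had equal means in both kinds of RNA after miR-130a (0.00 ± 0.16), but was lower in AGO2-bound RNA after scramble (-1.27), and that difference between the transfections passed the test (1.27, adjusted p = 7.33e-05).

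**Figure D2:**
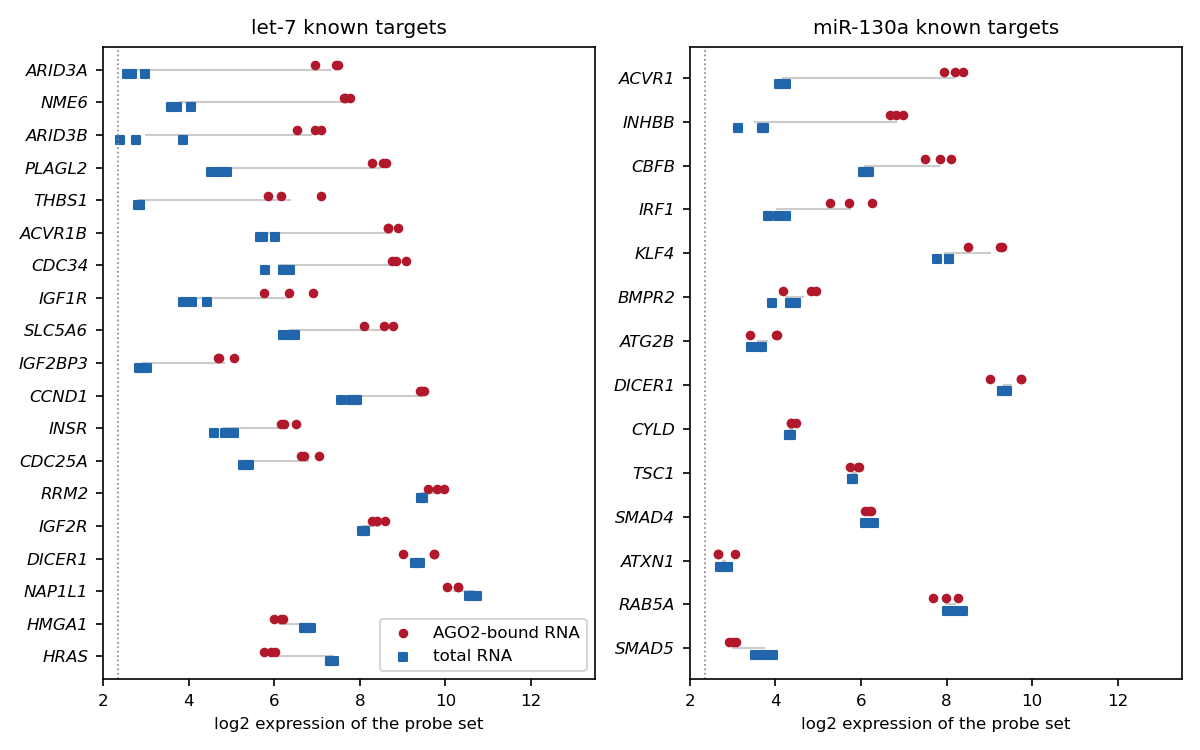
Log2 signal of the tested known targets of let-7 (left panel, 19 genes) and of miR-130a (right panel, 14 genes) after miR-130a, ordered by the difference. Circles are the 3 AGO2-bound arrays and squares the 3 total RNA arrays; the groups lie apart for most let-7 targets, while among the miR-130a targets the lower 8 rows above SMAD5 overlap.

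Relative to the other transfections, 4 of the 5 higher miR-130a targets stood further above total RNA after miR-130a. These 5 were picked as high on the same miR-130a arrays, which favours such gaps. Their gaps alone therefore do not describe the targets, and the whole list of 14 is given below. The AGO2-bound minus total difference of ACVR1 was 4.01 after miR-130a, against 1.66 after miR-203, 1.37 after miR-205 and 3.00 after scramble. It exceeded that after scramble by 1.00 (adjusted p = 0.00115). That of INHBB was 3.30 after miR-130a, against 0.63, 0.92 and 1.14 after miR-203, miR-205 and scramble, and exceeded scramble by 2.16 (adjusted p = 1.25e-08). INHBB thus averaged 6.82 in AGO2-bound RNA after miR-130a and 4.61 after scramble, while total RNA averaged 3.52 and 3.47. CBFB exceeded scramble by 0.86 (adjusted p = 0.0117) and IRF1 by 1.62 (adjusted p = 2.8e-05). All 4 also passed the test against miR-203 and against miR-205 in the same direction. KLF4 went the other way, 1.05 after miR-130a and 2.44 after scramble, a difference of -1.39 (adjusted p = 0.00181). Over the 14 targets, 5 were further above total RNA than after scramble and 2 were less far, ACVR1, INHBB, CBFB, IRF1 and SMAD4 against KLF4 and DICER1. The median of these differences over the list was 0.00, against -0.06 over all genes tested. Across all genes 16.2% were further above total RNA than after scramble and 18.4% less far.

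Targets of the miR-17 family were higher for 10 of 20 tested members (50%) and lower for 5 (25%), against 33.3% and 38.3% of all genes, with a median of 0.36. After miR-203, miR-205 and scramble 12, 10 and 10 members were higher. E2F3 and TXNIP, given above, were the largest. CDKN1A, the cyclin-dependent kinase inhibitor p21, read 11.08, 11.19 and 11.62 in AGO2-bound RNA, against 9.35, 9.45 and 9.36 in total RNA (1.90 ± 0.16). CCND1, cyclin D1, which is also on the let-7 list, read 9.49, 9.40 and 9.44, against 7.93, 7.57 and 7.80 in total RNA (1.68 ± 0.14). In both genes every AGO2-bound array lay above every total RNA array. The lower members were MAPK9, a stress kinase (-0.93), TSG101, an endosomal sorting subunit (-0.84), ITCH, a ubiquitin ligase (-0.79), HIF1A, the hypoxia factor (-0.59), and E2F1, a cell cycle transcription factor (-0.49).

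Transcripts of the silencing machinery itself showed no common direction, with 8 of 25 higher (32%) and 9 lower (36%). These shares are near the 33.3% and 38.3% of all genes, and the list median was -0.07. CNOT6, a catalytic subunit of the CCR4-NOT deadenylase, read 8.88, 9.23 and 9.24 in AGO2-bound RNA, against 5.98, 5.89 and 6.06 in total RNA (8.83-fold higher, adjusted p = 2.49e-16). CNOT3, another subunit of the same complex, read 2.49, 2.63 and 2.53, against 5.49, 5.34 and 5.01 in total RNA and was 6.63-fold lower. Both subunits separated the groups fully, in opposite directions. RAN, the GTPase of nuclear transport, was lower by -2.37 ± 0.17, and LSM1, a decapping activator, by -1.53 ± 0.12.

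Immediate early genes are transcribed within minutes of a stimulus and have short-lived messages. Of 19 tested members 17 were higher in AGO2-bound RNA (89.5%), against 33.3% of all genes. The list median was 1.75. ZFP36, which binds AU-rich elements and speeds decay of its targets, read 7.97, 8.12 and 8.01 in AGO2-bound RNA, against 3.98, 4.49 and 4.34 in total RNA (13.6-fold). DUSP1, a phosphatase of MAP kinases, read 10.63, 11.17 and 11.40, against 7.32, 7.27 and 7.38 in total RNA (13.4-fold). MCL1, an anti-apoptotic protein, read 11.15, 11.22 and 11.42 in AGO2-bound RNA, against 8.99, 8.92 and 8.94 in total RNA (4.96-fold). IER2 read 9.17, 9.03 and 9.25, against 7.09, 7.17 and 7.07 in total RNA (4.10-fold). All AGO2-bound arrays of these 4 lay above all total RNA arrays, and 4 of the 5 probe sets of MCL1 shared the direction. The 2 lower members were the AP-1 family gene JUND (-1.12 ± 0.12) and the stress transcription factor ATF3 (-1.37 ± 0.21). After scramble 16 members were higher and 1 lower. Relative to scramble, 2 members were further above total RNA after miR-130a and 8 less far, against 16.2% and 18.4% of all genes, with a median of -0.58. Against miR-203 the order was the opposite, with 8 further above and 3 less far, against 25.7% and 24.8% of all genes, and a median of 0.40.

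In the MAP kinase pathway 12 of 30 tested genes were higher (40%) and 9 lower (30%), near the 33.3% and 38.3% of all genes, with a median of 0.05. RPS6KA3, a ribosomal S6 kinase downstream of ERK, was higher by 2.79 ± 0.15, MAP2K4, a kinase of the JNK branch, by 2.35 ± 0.14, and MAPK6, an atypical MAP kinase, by 1.94 ± 0.15. Cell cycle genes were divided, with 16 of 58 higher (27.6%) and 26 lower (44.8%, median -0.39). CCNE1, cyclin E1, read 9.01, 8.80 and 8.88 in AGO2-bound RNA, against 4.79, 4.39 and 4.54 in total RNA (20.0-fold higher). CCNA2, cyclin A2, read 10.51, 10.03 and 9.69, against 6.35, 6.26 and 6.24 in total RNA (13.9-fold higher). MKI67, the proliferation antigen, read 2.73, 2.71 and 2.86 in AGO2-bound RNA, against 4.92, 5.00 and 4.69 in total RNA (4.30-fold lower), and PLK1, a mitotic kinase, was 4.35-fold lower. All 4 genes separated the 2 kinds of RNA without overlap, and the AGO2-bound arrays of CCNA2 were the most spread.

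**Figure D3:**
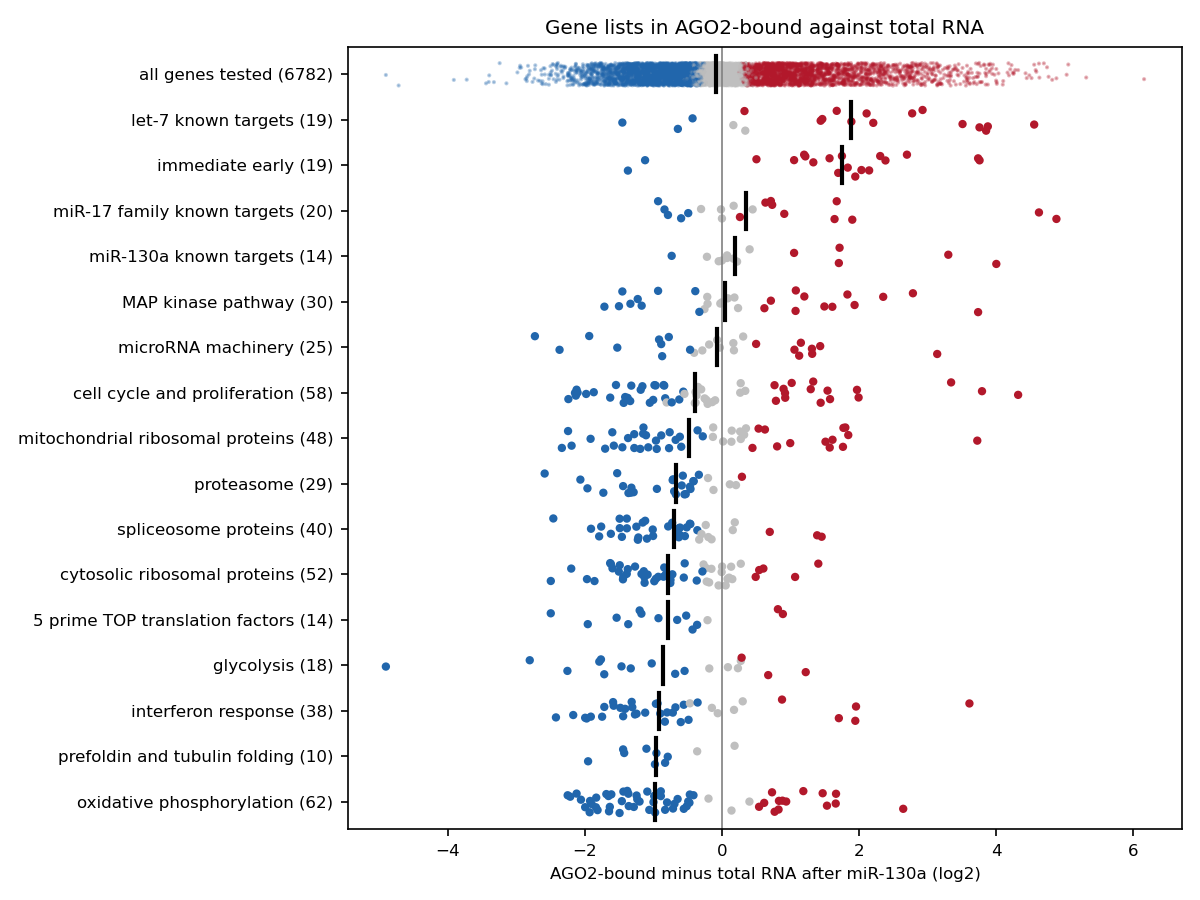
AGO2-bound minus total RNA after miR-130a for the tested members of 16 gene lists and for all 6782 genes (top row), in log2, with the number tested in brackets. Each point is a gene, red where it was higher and blue where it was lower at an adjusted p under 0.05, grey otherwise, and black bars are medians, which run from 1.89 for let-7 targets to -0.97 for oxidative phosphorylation; vertical scatter within a row carries no value.

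Transcripts of the translation apparatus were mostly lower in AGO2-bound RNA. Of 52 tested cytosolic ribosomal protein genes 33 were lower (63.5%) and 5 higher (9.6%), against 38.3% and 33.3% of all genes. The list median was -0.78. RPS3 read 9.19, 8.96 and 9.23 in AGO2-bound RNA, against 11.57, 11.64 and 11.66 in total RNA (5.64-fold lower). RPS9 read 8.97, 8.93 and 9.37, against 11.05, 11.13 and 10.99 in total RNA (3.91-fold lower). RPL32 was lower by -1.86 ± 0.13 and RPS15 by -1.62 ± 0.13. In these 4 genes every AGO2-bound array lay below every total RNA array. The 5 higher members were RPS29 (1.41), RPS28 (1.07), RPLP1 (0.61), RPL3 (0.54) and RPS24 (0.49). Ribosomal protein genes have many processed pseudogenes, so a probe set can read more than one copy. Translation factors with 5 prime oligopyrimidine tracts, the element through which mTOR controls translation, were lower for 11 of 14 (78.6%). EIF4B, a cofactor of the cap-binding helicase, was 5.65-fold lower, EEF1D, an elongation factor exchange subunit, 3.88-fold, TPT1, a tumour-associated growth protein, by -1.54 ± 0.15 in log2, and EEF2, the translocation factor, 2.58-fold. The 2 higher members were PABPC1, the poly(A)-binding protein (0.89 ± 0.11), and EIF3F, an initiation factor subunit (0.82 ± 0.18).

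Energy metabolism followed the same side. In oxidative phosphorylation 45 of 62 tested genes were lower (72.6%) and 14 higher (22.6%), against 38.3% and 33.3% of all genes. The list median was -0.97. NDUFB6, a complex I subunit, read 7.43, 7.39 and 7.72 in AGO2-bound RNA, against 9.21, 9.36 and 9.42 in total RNA (3.52-fold lower). ATP5F1C, the gamma subunit of ATP synthase, was 3.57-fold lower and ATP5MC1, a membrane ring subunit, 4.35-fold lower. ATP5F1E, the epsilon subunit of the same enzyme, went the other way, at 13.56, 13.86 and 13.12 in AGO2-bound RNA, against 11.02, 10.75 and 10.83 in total RNA (6.26-fold higher). Glycolysis had 11 of 18 genes lower (61.1%) and 3 higher (16.7%). ENO1, enolase, was lower by -2.80 ± 0.18, GPI, glucose-6-phosphate isomerase, by -2.25 ± 0.17 and TPI1, triosephosphate isomerase, by -1.79 ± 0.17, all beside PKM. The higher ones were the glucose transporter gene SLC2A1 (1.22), HK2, a hexokinase (0.68), and PGAM1, phosphoglycerate mutase (0.29). The call of PGAM1 was lost without AGO2-bound replicate 1 (0.22) or 2 (0.27), or total RNA replicate 1 (0.26) or 2 (0.29). Mitochondrial ribosomal proteins were lower for 26 of 48 (54.2%) and higher for 13 (27.1%). Among them MRPS35 read 11.41, 11.74 and 11.18 in AGO2-bound RNA, against 7.73, 7.66 and 7.76 in total RNA (13.2-fold higher). MRPL35 and MRPS7 were also higher, by 1.84 and 1.80, and MRPL57 was lower by -2.19.

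Complexes of protein turnover, splicing and folding were lower as well, beside 38.3% of all genes lower and 33.3% higher. Of 29 tested proteasome genes 24 were lower (82.8%), and PSMA2 alone was higher, at 0.29, a call lost without AGO2-bound replicate 2 (0.17) or any one of the 3 total RNA arrays (0.28 to 0.30). PSMA5, a subunit of the outer ring, read 5.80, 5.37 and 6.08 in AGO2-bound RNA, against 8.32, 8.34 and 8.36 in total RNA (6.01-fold lower). PSMA3, from the same ring, PSMB7, a catalytic ring subunit, and PSMC1, a base ATPase, were lower by -2.07, -1.96 and -1.33. Spliceosome genes were lower for 30 of 40 (75%) and higher for 3, SF3B3 (1.39), PRPF31 (1.46) and SF3A3 (0.70). SNRPG, a core Sm protein, was 5.50-fold lower, SRSF5 and SRSF3, splicing regulators, 3.76-fold and 2.75-fold, and LSM3, part of the U6 ring, 3.46-fold. Prefoldin and tubulin folding genes were lower for 8 of 10 and higher for 0 at this threshold. PFDN5 and PFDN1, prefoldin subunits, were lower by -1.95 and -1.43, TBCB, a tubulin cofactor, by -1.44 and PFDN4 by -1.10. Heat shock chaperones were lower for 13 of 21 and higher for 6. HSPB1, a small heat shock protein, and HSPA4, an HSP110 family member, were lower by -2.35 and -2.22, while HSPA9, the mitochondrial HSP70, read 10.65, 10.76 and 10.75 in AGO2-bound RNA, against 8.59, 8.45 and 8.49 in total RNA (4.62-fold higher).

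Interferon response genes were mostly less represented in AGO2-bound than in total RNA after miR-130a. Of 38 tested members 28 were lower (73.7%) and 5 higher (13.2%), against 38.3% and 33.3% of all genes. The list median was -0.92. CXCL11, a chemokine, read 6.44, 6.88 and 6.71 in AGO2-bound RNA, against 9.08, 9.19 and 9.02 in total RNA (5.36-fold lower). RSAD2, the antiviral protein viperin, read 6.29, 6.86 and 6.44, against 8.52, 8.56 and 8.24 in total RNA (3.76-fold lower). EIF2AK2, the kinase PKR that senses double-stranded RNA, read 4.30, 3.69 and 3.95 in AGO2-bound RNA, against 5.94, 6.02 and 5.97 in total RNA (3.99-fold lower). In all 3 genes the 2 kinds of RNA were fully apart, and each gene was above the floor in both. The 5 higher members included DHX58, IFNB1 and IRF9. DHX58, the RIG-I-like helicase LGP2, read 6.45, 7.27 and 6.83 in AGO2-bound RNA, against 3.12, 3.30 and 3.28 in total RNA (12.2-fold higher). IFNB1, interferon beta itself, read 7.59, 7.55 and 6.99, against 5.66, 5.42 and 5.20 in total RNA (3.86-fold higher). IRF9, the DNA-binding subunit of the interferon-activated complex, read 8.61, 8.30 and 7.44 in AGO2-bound RNA, against 6.13, 6.28 and 6.07 in total RNA. IRF1, given above, and TNFSF10, the death ligand TRAIL (0.88 ± 0.21), were the other two.

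**Figure D4:**
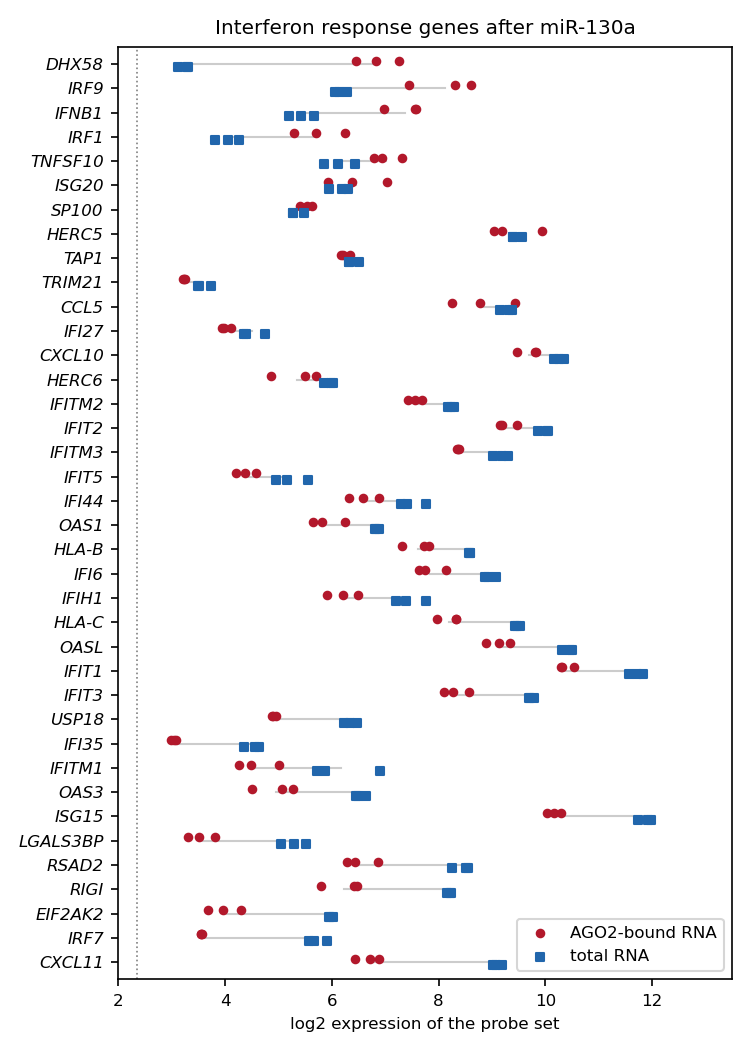
Log2 signal of the 38 tested interferon response genes after miR-130a, ordered by the AGO2-bound minus total difference. Circles are the 3 AGO2-bound arrays, squares below them the 3 total RNA arrays and the dotted line is the floor; DHX58 is at the top, 12.2-fold higher in AGO2-bound RNA, and CXCL11 at the bottom, 5.36-fold lower.

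Of the interferon response genes listed, 51 were on the array and 38 passed the filter on mean signal over all arrays of the series. After miR-130a 0 of these 38 members were at the floor in either kind of RNA. The filter had already removed dim genes, so this count cannot show whether the interferon transcripts as a whole were present. After scramble 5 members lay at the floor on all 3 total RNA arrays, 5 on all 3 AGO2-bound arrays and 4 in both, DHX58, IFNB1 and CXCL11 among them. For these no AGO2-bound against total difference could be measured after scramble, so a gap to scramble computed for them, such as that of CXCL11, reflects the miR-130a arrays alone. In such pools of RNA a change in how many cells carry a transcript and a change in RNA per cell cannot be told apart. Over the list the median difference was -0.92 after miR-130a and -0.06 after scramble, and 15 members were less far above total RNA than after scramble while 6 were further above, against 18.4% and 16.2% of all genes, counts that include members at the floor after scramble. The order was the opposite against miR-203, where the median was -1.30, 29 members were lower, and after miR-130a 21 members were further above total RNA and 6 less far, against 25.7% and 24.8% of all genes. Against miR-205, with a median of -0.30, 8 were further above and 13 less far, against 20.2% and 23.3% of all genes. IRF7, an interferon-induced regulator, read 3.54, 3.55 and 3.56 in AGO2-bound RNA after miR-130a, against 5.91, 5.67 and 5.57 in total RNA. Its difference of -2.17 was below that after miR-203 (-1.27), miR-205 (-0.90) and scramble (-1.24), each by a called amount.

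Genes of the prostate and of androgen signalling were divided. KLK3, which encodes prostate-specific antigen, read 12.48, 12.36 and 12.34 in AGO2-bound RNA, against 11.35, 11.49 and 11.43 in total RNA (0.97 ± 0.14). The luminal transcription factor gene SPDEF read 9.01, 8.93 and 8.73, against 7.53, 7.35 and 7.35 in total RNA, whereas HOXB13, the prostate homeobox factor, read 6.25, 5.54 and 5.74 in AGO2-bound RNA, against 7.86, 7.98 and 7.95 in total RNA. Of 29 tested androgen-responsive genes 11 were higher (37.9%) and 12 lower (41.4%), near the 33.3% and 38.3% of all genes. SMS, spermine synthase, read 11.37, 11.92 and 11.62 in AGO2-bound RNA, against 8.47, 8.45 and 8.44 in total RNA (9.09-fold higher). FKBP5, an immunophilin of steroid receptors, read 3.01, 2.93 and 2.89, against 5.54, 5.50 and 5.36 in total RNA (5.75-fold lower). KRT18, a luminal keratin, was lower by -2.05 and GUCY1A1, a guanylate cyclase subunit, higher by 1.62. Among androgen receptor coregulators 14 of 32 were higher (43.8%) and 13 lower (40.6%). The SUMO ligase genes PIAS4 and PIAS3 were higher by 2.96 ± 0.13 and 2.38 ± 0.18, and GATA2, a pioneer factor of the receptor, by 1.69 ± 0.12.

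Lists of lipid, stress and amino acid metabolism varied within themselves, beside 33.3% of all genes higher and 38.3% lower. Cholesterol and fatty acid synthesis was lower for 15 of 28 (53.6%) and higher for 6 (21.4%). FASN, fatty acid synthase, averaged 6.65 ± 0.24 in AGO2-bound RNA, against 9.06 ± 0.10 in total RNA (SD, n = 3 each), and was 5.32-fold lower. IDI1, an isoprenoid isomerase, ACACA, acetyl-CoA carboxylase, and HSD17B7, a sterol reductase, were lower by -1.85, -1.39 and -1.09. Of 24 ER chaperone genes 7 were higher (29.2%) and 13 lower (54.2%). DNAJB9, a co-chaperone of BiP, was higher by 3.86 ± 0.16, EDEM1, of ER-associated degradation, by 2.17 ± 0.17 and HERPUD1, from the same pathway, by 1.14 ± 0.10, while P4HB, a disulfide isomerase, was lower by -1.50 ± 0.12. Targets of ATF4, the transcription factor of the amino acid response, were higher for 12 of 24 (50%) and lower for 10 (41.7%). DDIT4, an inhibitor of mTOR, read 10.64, 10.42 and 10.49 in AGO2-bound RNA, against 8.07, 8.28 and 8.37 in total RNA. CEBPG, a bZIP partner of ATF4, read 8.14, 8.83 and 8.15, against 6.02, 6.11 and 5.93 in total RNA, and TRIB3, a pseudokinase, was higher by 2.28 ± 0.14. CEBPG and TRIB3 exceeded their difference after scramble by 3.28 (adjusted p = 1.03e-11) and 2.96 (adjusted p = 4.1e-11). HSPA9 and SMS did so by 2.40 and 2.05.

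Synthesis of GPI anchors and dolichol was one of the lists with more rises than falls, with 13 of 26 higher (50%) and 9 lower (34.6%, median 0.31). Over all genes 33.3% were higher and 38.3% lower. PIGC, of the first step of anchor synthesis, was higher by 3.09 ± 0.16, ALG3, a mannosyltransferase, by 2.61 ± 0.13, DOLK, dolichol kinase, by 2.44 ± 0.13 and PIGP by 2.10 ± 0.11. Genes listed as KRAB zinc finger genes, a class of transcriptional repressors, were higher for 15 of 68 (22.1%) and lower for 22 (32.4%). The KRAB domain of each listed gene was not checked. ZNF200 (3.83), ZNF443 (2.94), ZNF274 (2.16) and ZNF710 (1.92) had the smallest p-values and were all higher. RNA polymerase II and mediator subunits were higher for 11 of 29 (37.9%) and lower for 15 (51.7%). CDK8, the mediator kinase (1.93), and MED8 (1.30) were above total RNA. POLR2H (-1.81) and POLR2L (-1.66), small polymerase subunits, were below it. Peroxisome genes had 7 of 20 on each side (35%), near the shares of all genes. They were led by ACAA1, a thiolase of fatty acid oxidation (3.92), and CAT, catalase (1.57), against PEX10 and PEX2 (-2.47), its partner ligase. ESCRT and sorting genes were lower for 12 of 21 (57.1%) and higher for 3 (14.3%). CHMP2A (-2.24), SNX2 (-1.46) and VPS28 (-1.45) were below total RNA and VPS4B (1.56), STAM2 (1.13) and VPS37B (0.85) above it. Of 9 COP9 signalosome genes 3 were higher (33.3%) and 4 lower (44.4%), near the shares of all genes. COPS7B (1.77) and COPS2 (1.66) were among the first and COPS6 (-1.68) and GPS1 (-1.56) among the second. Histone genes were higher for 5 of 18 (27.8%) and lower for 6 (33.3%), near the shares of all genes. H2AC17 (1.00) and MACROH2A1 (0.82) were higher and H2AC6 (-1.36) and H1-2 (-0.60) lower. Of the nuclear noncoding RNAs listed, 3 were on the array and 0 passed the filter.

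In 4 genes one kind of RNA lay at the floor on all 3 arrays, so that only a bound is measured. TMEM242, a membrane protein gene, read 4.76, 5.70 and 4.96 in AGO2-bound RNA, against the floor in total RNA, at least 6.79-fold higher. CCNJ, cyclin J, read 4.41, 3.89 and 3.55 (at least 3.04-fold higher), and SLC38A4, an amino acid transporter gene, 3.84, 3.56 and 3.09 (at least 2.20-fold higher). The uncharacterized LOC100505915 was at the floor in AGO2-bound RNA and read 3.33, 2.88 and 3.62 in total RNA, so it was at least 1.88-fold lower. TMEM242 was near the floor in both kinds of RNA after scramble, where its difference was -0.01.

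Much of the AGO2-bound against total difference was shared with the other transfections, which use no array of miR-130a. Across the 6782 genes the difference after miR-130a correlated with that after scramble at r = 0.79, after miR-205 at 0.68 and after miR-203 at 0.63, as a description over genes that share probes and protocol. Of all 6782 genes, 2378 were higher and 2565 lower in AGO2-bound RNA after scramble. Of the genes higher after miR-130a, 1722 were also higher after scramble, 76.3% of the miR-130a list and 72.4% of the scramble list. Of those lower, 1956 were also lower after scramble (75.2% and 76.3%). Genes higher after all 4 transfections numbered 1159 (51.3% of those higher after miR-130a), and those lower after all 4 numbered 1100 (42.3% of those lower). In contrast, 164 genes were higher after miR-130a and lower after scramble (7.3% of those higher after miR-130a), and 148 the reverse (5.7% of those lower).

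The difference itself was tested as AGO2-bound minus total after miR-130a, minus the same after another transfection. It passed for 2341 genes against scramble (34.5%), 1096 further above total RNA after miR-130a and 1245 less far. It passed for 3422 genes against miR-203 (50.5%), 25.7% of all genes further above and 24.8% less far, and for 2955 against miR-205 (43.6%), 20.2% further above and 23.3% less far. The listed KRAB zinc finger genes leaned one way against miR-205, with 3 of 68 further above total RNA and 46 less far. Their median AGO2-bound minus total difference was -0.05 after miR-130a and 1.24 after miR-205. RPA3, lower in AGO2-bound RNA after miR-130a (-2.93), miR-203 (-2.51) and scramble (-2.88), was at 4.15 after miR-205. The lowest value of the miR-130a arrays differs from that of the other transfections, from which separate normalization runs are inferred, and this test removes a run offset only where it is equal in both kinds of RNA. A run effect on one kind of RNA alone cannot be told apart from the transfection.

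The 8 genes furthest above scramble were above total RNA after miR-130a, and 7 of them were below it after scramble. ACAA1 read 11.69, 12.15 and 11.75 in AGO2-bound RNA after miR-130a, against 8.09, 7.88 and 7.88 in total RNA, a difference of 3.92, against -1.16 after scramble. The gap between the transfections was 5.07 (adjusted p = 8.52e-15). NUDT9, an ADP-ribose hydrolase, read 9.54, 10.03 and 9.87, against 6.12, 6.18 and 6.25 in total RNA, with 3.63 after miR-130a and -1.41 after scramble. RNF7, the RING subunit of cullin-5 ligases, read 10.31, 10.31 and 10.12 in AGO2-bound RNA, against 6.71, 6.38 and 6.65 in total RNA, with 3.67 after miR-130a and -0.90 after scramble. PRPSAP2, of nucleotide precursor synthesis (3.10 against -1.51), GCLM, of glutathione synthesis (2.72 against -1.25), CARHSP1, an RNA-binding protein (2.74 against -1.03), and TMSB4X, which sequesters actin (1.65 against -1.97), turned from below to above in the same way. RPS6KA5, the kinase MSK1, was 4.17 after miR-130a, against 0.26 after scramble. In all 8 genes the AGO2-bound arrays of miR-130a lay above its total RNA arrays.

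The 8 genes furthest below scramble were far above total RNA after scramble and close to it or below it after miR-130a. STAM, an endosomal sorting adaptor, read 5.24, 4.91 and 5.12 in AGO2-bound RNA after miR-130a, against 6.32, 6.41 and 6.13 in total RNA. Its difference was -1.20 after miR-130a, against 4.84 after scramble, a gap of -6.04 (adjusted p = 1.3e-16). AGO2-bound RNA averaged 5.09 after miR-130a and 10.85 after scramble, while total RNA averaged 6.29 and 6.01. CCNG1, cyclin G1, was -1.42 after miR-130a, against -1.89 after miR-203, -1.86 after miR-205 and 3.02 after scramble, so the control stood apart from all 3 microRNAs. DPM2, of dolichol-mannose synthesis, was 0.36 after miR-130a, against 5.10 after scramble, and its call after miR-130a (adjusted p = 0.0356) was lost without AGO2-bound replicate 1 (0.26), without total RNA replicate 1 (0.23) and without total RNA replicate 3 (0.38). PFDN2, a prefoldin subunit, TRIP4, a transcriptional coactivator, and SMIM7, a small membrane protein, stood at -0.36, -0.23 and -0.75 after miR-130a, against 4.04, 4.14 and 3.57 after scramble. SNX7, a sorting nexin, and WASHC5, of the endosomal WASH complex, were at -1.64 and -1.14, against 2.55 and 2.94 after scramble. SMIM7 has a second probe set that was higher after miR-130a, at 1.57.

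**Figure D5:**
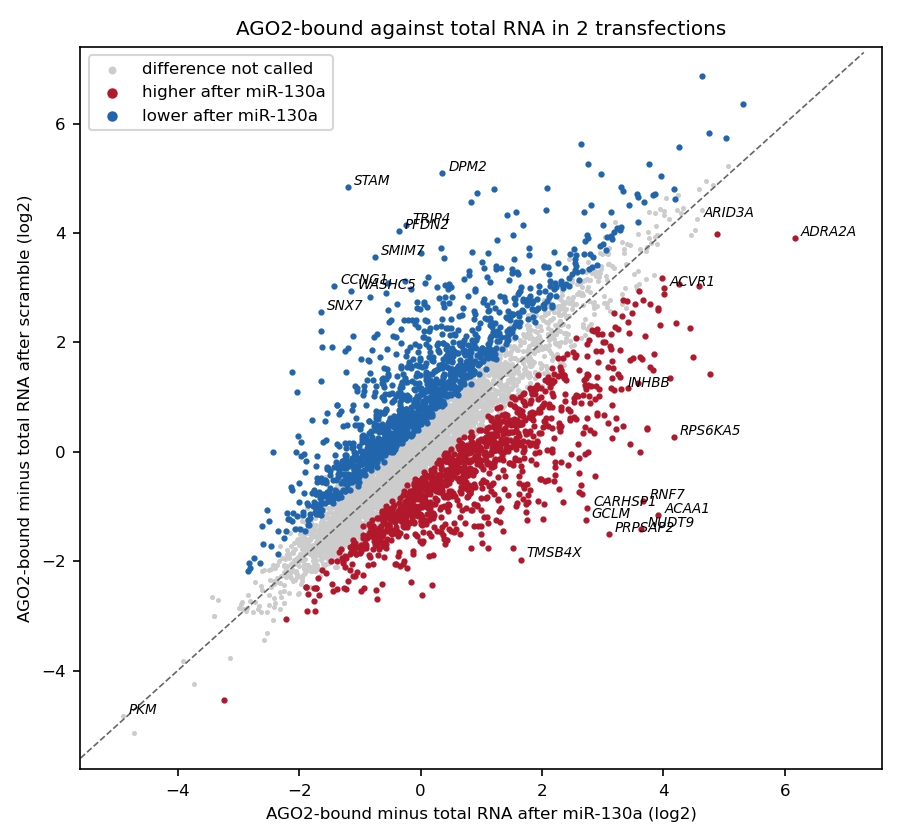
AGO2-bound minus total RNA after miR-130a (x axis) and after scramble (y axis) in log2, one point for each of 6782 genes. Red genes stood further above total RNA after miR-130a and blue ones less far at an adjusted p under 0.05, grey ones did not pass, the dashed line marks equal differences, and the names are the 8 largest gaps each way with 5 genes described in the text; most genes lie near the line (r = 0.79).

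Against each of miR-203, miR-205 and scramble, 546 genes (8.05%) were further above total RNA after miR-130a and 194 (2.86%) were less far. Of the 546, those with the largest AGO2-bound minus total difference after miR-130a were ADRA2A, E2F3, TBPL1, CTSA, TUBG1, NMU, MEX3C and RPS6KA5. The difference of ADRA2A was 6.16 after miR-130a, against 3.17 after miR-203, 2.92 after miR-205 and 3.91 after scramble. TBPL1 stood at 4.77, against 2.65, 1.49 and 1.42 in the same order, with 11.68, 11.56 and 11.74 in AGO2-bound RNA after miR-130a, against 6.92, 6.85 and 6.90 in total RNA. TUBG1, gamma-tubulin, read 12.97, 12.93 and 12.71 in AGO2-bound RNA, against 8.41, 8.35 and 8.39 in total RNA, and exceeded scramble by 2.76 (adjusted p = 1.03e-07). MEX3C, an RNA-binding ubiquitin ligase, exceeded scramble by 1.19, CTSA by 1.56 and E2F3 by 0.90. NMU, a neuropeptide gene, varied between AGO2-bound arrays, at 9.50, 8.50 and 7.47, against 3.98, 4.04 and 4.16 in total RNA. Its gap to scramble of 2.17 (adjusted p = 0.0263) no longer passed without AGO2-bound miR-130a replicate 1 (1.67), without AGO2-bound scramble replicate 3 (1.58), or without total scramble replicate 1 (2.04) or 2 (2.05).

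Of the 194, those with the lowest AGO2-bound minus total difference after miR-130a were CXCL11, HSPB1, IRF7, MSMB, ULBP2, FDX1, HAX1 and ZC3HAV1. HAX1, a mitochondrial anti-apoptotic protein, read 6.79, 6.81 and 7.16 in AGO2-bound RNA after miR-130a, against 8.88, 8.90 and 8.89 in total RNA (-1.97 ± 0.15). It was at 0.61 after miR-203, -0.23 after miR-205 and 0.19 after scramble. ULBP2, a ligand of an activating receptor of natural killer cells, read 5.35, 5.63 and 4.87, against 7.42, 7.42 and 7.11 in total RNA, a difference of -2.04, against 1.10 after scramble. MSMB, a secreted prostate protein, read 3.18, 3.44 and 3.08 in AGO2-bound RNA, against 5.78, 5.37 and 4.73 in total RNA (-2.06). MSMB and CXCL11 were at the floor in both kinds of RNA after scramble, so their gaps to it rest on miR-130a alone. The gap of CXCL11 to miR-203 was -0.63, and it lost the threshold without total miR-203 replicate 2 (-0.40). ZC3HAV1, the antiviral zinc finger protein ZAP, differed by -1.90 on the probe set used and by -0.02 on the one with the largest variance. HSPB1 exceeded its fall after scramble by a small amount (gap -0.48, adjusted p = 0.0396), which lost the threshold without any one of 9 of the 12 arrays compared. FDX1, a mitochondrial ferredoxin, was at -1.99 after miR-130a, against -0.77, -1.56 and -1.41 after miR-203, miR-205 and scramble. Its gap to miR-205, -0.44 (adjusted p = 0.0421), lost the threshold without any one of 8 of the 12 arrays compared.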

How the data were processed

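Expression arrays of LNCaP cells were analysed from the log2 values deposited by the authors, 22277 probe sets on 24 arrays. R 2.9.0, GCRMA and RMA are named for making them, per the submitters' processing notes, which give no order. Probe sets were named from GEO's platform annotation, which gives 1 symbol for 19064, several for 1043 and none for 2108, with 62 controls. Each gene was read by the probe set with the highest mean over the 24 arrays, and 6782 of 11963 genes with a mean log2 value of at least 2.85 were tested. AGO2-bound minus total RNA was fitted over 8 groups by lmFit and eBayes (limma 3.58.1, R 4.3.3), and p-values were Benjamini-Hochberg adjusted over the 6782 genes. The script was tested on simulated data. Values within 0.05 of the lowest value count as the floor, and a fold against the floor is a bound. Genes named are the 15 largest rises and falls without overlap, up to 4 members of each list by p-value, every tested miR-130a target, the genes at the floor in 1 kind of RNA, the 8 largest gaps to scramble each way, and the 8 largest rises and falls after miR-130a among genes that differed from all 3 other transfections in one direction. Members of small counts and genes set beside them were named after their values were seen, and the members and lists were chosen with earlier results of these data known. Alternatives changed the filter, probe set, scaling, prior, threshold, array weights and arrays, or added a replicate block.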

Additional observations from a re-analysis of the deposited data

Results flagged for a closer look

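The AGO2-bound minus total RNA difference depended on the transfection for many genes. By the limma interaction test it differed for 2341 genes between miR-130a and scramble, for 3422 between miR-130a and miR-203 and for 2955 between miR-130a and miR-205. The values below are the difference after miR-130a minus that after scramble, in log2, each past the same test at an adjusted p under 0.05, with 3 arrays of each kind of RNA.

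Among the genes less far above total RNA after miR-130a, the gap was -6.04 for STAM, -4.74 for DPM2, -4.45 for CCNG1, -4.40 for PFDN2, -4.37 for TRIP4, -4.32 for SMIM7, -4.19 for SNX7 and -4.09 for WASHC5. It was 5.07 for ACAA1, 5.04 for NUDT9, 4.60 for PRPSAP2, 4.57 for RNF7, 3.97 for GCLM, 3.91 for RPS6KA5, 3.77 for CARHSP1 and 3.62 for TMSB4X, the genes further above it.

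Among known targets of miR-130a the gap was 1.00 for ACVR1, 2.16 for INHBB, 0.86 for CBFB, 1.62 for IRF1 and 1.27 for SMAD4, against -1.39 for KLF4 and -1.08 for DICER1. Among targets of let-7, of which 1 was further above total RNA and 8 less far, it was -1.51 for PLAGL2 and -0.90 for CCND1. Of the mitochondrial genes, MRPS35 had a gap of 3.30, ATP5F1E of 3.26 and ATP5MC1 of -3.58. Genes of the amino acid response, a chaperone and spermine synthase had gaps of 3.28 (CEBPG), 2.96 (TRIB3), 2.40 (HSPA9) and 2.05 (SMS).

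Of the genes that stood apart from all 3 other transfections, the gap to scramble was 2.26 for ADRA2A, 0.90 for E2F3, 3.34 for TBPL1, 1.56 for CTSA, 2.76 for TUBG1, 2.17 for NMU and 1.19 for MEX3C. It was -2.41 for CXCL11 and -2.05 for MSMB, both at the floor after scramble, and -0.48 for HSPB1, -0.93 for IRF7, -3.14 for ULBP2, -0.58 for FDX1, -2.16 for HAX1 and -1.53 for ZC3HAV1.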

How the results depend on the processing

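The counts of genes called stayed within 1.5 times under each setting tried, except where a change of at least 2-fold was asked. That left 2498 genes after miR-130a, 1299 higher and 1199 lower, 1074 against scramble (540 and 534), 1818 against miR-203 (869 and 949) and 1550 against miR-205 (666 and 884). Of the genes called after miR-130a, 46.5% were higher, 42.4% with each array centred on its median, 43.5% after quantile normalization and 52.0% at 2-fold. Leaving out each of the 6 arrays gave 4585 to 4692 genes. Of the lists reported above, the miR-130a targets had 9 members higher with no filter, interferon genes 1 member higher with a mean of at least 4, peroxisome genes 4 higher with the mean of all probe sets or the one of largest variance, miR-17 targets 3 lower with a mean of at least 4 and 8 lower with the probe set of largest variance, glycolysis 5 higher with array weights, spliceosome genes 5 higher with the mean of all probe sets or the one of largest variance, translation factors 4 higher with the latter, and KRAB genes 30 less far above total RNA than after miR-205 with a mean of at least 4. At 2-fold, proteasome genes had 10 lower and interferon genes 17 lower. For single genes, 3483 of 3564 alternative values kept direction and side of the threshold, and 1965 of 2008 for gaps between transfections. Direction turned with the mean of all probe sets for SMIM7 (0.41), NAP1L1 (0.29) and IGF2R (-0.018), with the probe set of largest variance for SMIM7 (1.57), NAP1L1 (1.76) and IGF2R (-0.37), and likewise for the gap of ZC3HAV1 to miR-203 (0.54). Probe sets of one gene read different parts of a transcript. The cause of these turns was not tested. Same-numbered AGO2-bound and total RNA arrays did not deviate together (r = -0.12, -0.013 and -0.044). With deviations from means of 3 arrays this cannot decide whether equal numbers pair samples, and the labels do not state it. With the replicate block 4807 genes were called after miR-130a, 2274 against scramble, 3411 against miR-203 and 2898 against miR-205. Signal near the floor limits what dim genes can show.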
